A study of Mus musculus with 12 samples.

Results

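The E2F transcription factors are a family of DNA-binding proteins that turn on or hold down the genes of DNA replication and cell division. The 8 mouse genes E2f1 to E2f8 were chosen by symbol and each had a row among the 36229 gene rows measured. RNA was sequenced from C57BL/6 mouse embryonic fibroblasts (MEFs) that all received an adenovirus carrying MyoD, the factor that starts the muscle programme. The virus stayed for 24 h in differentiation medium (2% horse serum, insulin at 10 µg/ml), followed by 72 h without it. Mixed cultures, in which myotubes (multinucleate muscle cells) lie among unfused cells, were WT, Kdm5a-/- (Kdm5a KO), Rb1-/- (Rb1 KO) or Kdm5a-/-;Rb1-/- (DKO). Rb1 encodes the retinoblastoma protein, and Kdm5a a histone demethylase known as its binding partner. Myotubes purified from mixed cultures by size and left to recover for 24 h were WT or DKO. Each of the 6 groups had n = 2 libraries. Every comparison of purified with mixed cells also compares oligo(dT) selection with ribosomal RNA depletion, reads of 36 with reads of 40 bases, and different sequencers, and these cannot be told apart. Neither the animals' age nor the origin of the paired libraries (1 culture or several) is given in the labels, so p-values measure only the spread between libraries, which may be technical.

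E2F1, E2F2 and E2F3 are the activators of the family. They bind DNA with a DP partner and recruit coactivators until RB1 masks them. E2F4 and E2F5 act mainly as repressors together with the pocket proteins RBL1 and RBL2. E2F6 represses with Polycomb-type complexes and without a pocket protein. E2F7 and E2F8 are atypical, since each carries paired DNA-binding domains, needs no DP partner and represses E2F target genes. In muscle, myoblasts leave the cell cycle for good before they fuse, and RB1 is known for holding that exit.

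Values are read counts divided by a size factor for each library, called normalised counts here. Depth ranged from 8688604 to 41309134 reads a library. The Rb1 row fell in the Rb1 KO libraries, which held 4457 and 4448 normalised counts against 5616 and 5649.5 in WT, by 0.34 ± 0.05 (SE) on the log2 scale (limma adjusted p = 5.31e-05). The DKO mixed libraries held 5309 and 5662, within 0.04 of WT on that scale. Which part of the gene was removed is not in the labels, and Rb1 shares exonic bases with Lpar6 and Rcbtb2, so the row is a weak check of the genotype. Kdm5a fell by 0.62 ± 0.08 in Kdm5a KO and by 2.06 ± 0.21 in purified DKO, and it was lower in each library of those groups than in any WT library of the same type. The fall was smallest in DKO mixed, which held 1319 and 1370 normalised counts of Kdm5a against 1637 and 1871 in WT mixed. There the Kdm5a row too is a weak check of the genotype. The Kdm5a KO and DKO libraries held Xist and no Ddx3y, whereas the WT and Rb1 KO libraries held Ddx3y and at most 2.48 normalised counts of Xist, so any comparison across the Kdm5a genotype also compares female with male cells, and these cannot be told apart. The median absolute log2 difference between the libraries of a pair was 0.51 in purified DKO and 0.11 to 0.18 in the other groups, and the purified changes below are given without each purified DKO library in turn. With 1 DKO library left, the spread in the purified fit comes from the WT pair alone. Those values are therefore given as sizes, and whether they passed is not read.

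Cell type markers moved with the genotypes. The summed normalised counts of 7 markers of cycling cells ranged from 158 to 181 in WT mixed, 266 to 277 in Kdm5a KO, 10543 to 11565 in Rb1 KO, 25836 to 25916 in DKO mixed, 104 to 109 in WT purified, where Ccnb1 was at 0, and 13559 to 25335 in DKO purified. Sums of 10 myotube markers were 161982 to 167677, 160462 to 170353, 32399 to 33827, 67528 to 68755, 441748 to 452638 and 179450 to 208355 in the same order. The near-equal sums of WT and Kdm5a KO hid a split. In Kdm5a KO 7 of the 10 fell and 2 rose (median log2 change -0.48), where 13.8% of all genes fell and 13.4% rose. Myh3 alone held 77084 and 76911 in WT mixed and 99141 and 107427 in Kdm5a KO. Sums of 8 fibroblast markers reached 60061 to 70479 in Rb1 KO and lay between 5961 and 12241 in the other groups. Macrophage markers summed to at most 1049 with Adgre1 at 0 in purified cells, endothelial markers to at most 358, and smooth muscle markers ranged from 17941 to 112903. Fewer cells of a type and less RNA per cell cannot be told apart in bulk RNA. The part of cell composition in the results below was not tested.

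Stretches of the members' promoters are shown because E2F genes are themselves known targets of E2F factors. RefSeq (GRCm38.p6) gave a window of 300 bases, 250 before to 50 after the start, for 6 members. E2f4 and E2f5 had none. The windows were searched on both strands for TTGGCGC, likewise TTCGCGC, likewise TTCCCGC, likewise TTGCCGC, spellings of the core of an E2F site that were chosen with the windows in view. At least 1 match stood in 4 of 8 windows, belonging to E2f2, E2f3, E2f7 and E2f8, and in 9.57% of all 32851 promoter windows. A match is a description of letters and not a site. The matches did not overlap one another, and the ones shown are in capitals below, on the strand of the gene, with positions counted from the start. The matches of E2f3 at 19 and of E2f7 at -223 are not shown.
E2f2, match at 41, chr4:136172294-136172323, plus strand: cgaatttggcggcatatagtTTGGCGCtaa
E2f3, match at -11, chr13:29986057-29986086, minus strand: tttgaaaagccgGCGGGAAatctgagtttc
E2f7, match at -198, chr10:110745229-110745258, plus strand: gcccgcgtccccGCGGGAAacgctcccgcg
E2f7, match at -92, chr10:110745335-110745364, plus strand: gcgcggcgccgaGCGCCAAgacagcgaggg
E2f8, match at -111, chr7:48881690-48881719, minus strand: cagaggcgcggaTTGGCGCgcggggccccg
GCGGGAA is TTCCCGC read from the opposite strand. Similarly, GCGCCAA is TTGGCGC read that way. E2f7 held 3 matches in its window, E2f3 held 2 in 1 of its 2 windows, and E2f2 held 1 in 1 of its 2. None of these letters stood in the single windows of E2f1 and E2f6.

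**Figure D1:**
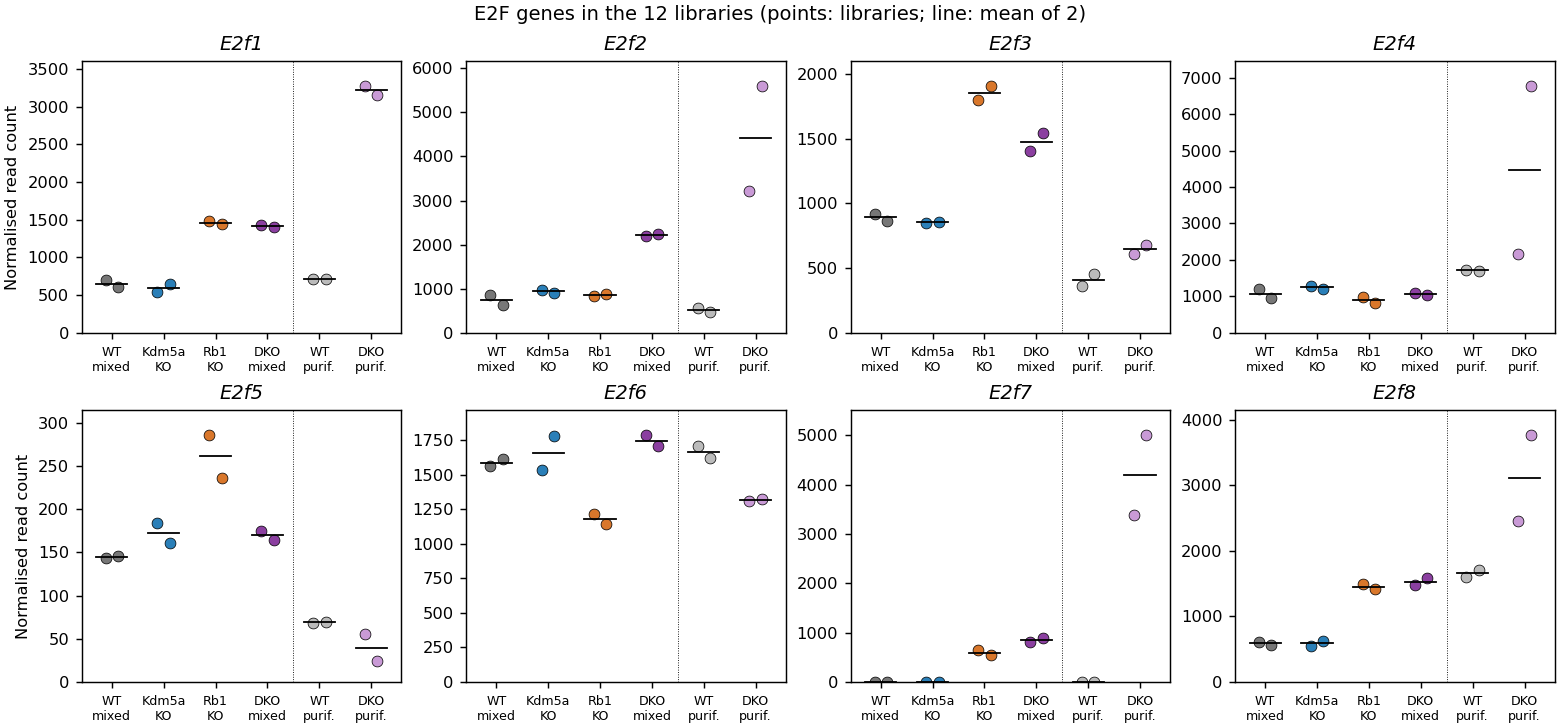
Normalised counts of E2f1 to E2f8 (vertical axes, linear, each from 0) in every library of the 6 groups (horizontal axis). Each point is a library, lines are means, and the dotted line parts mixed from purified. E2f7 lies between 0 and 7.45 in the libraries of cells with Rb1 and between 545 and 5009 in those without.

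In mixed Rb1 KO cultures 5 of the 8 members rose over WT (E2f1, E2f3, E2f5, E2f7 and E2f8) and 1 fell (E2f6), while E2f2 and E2f4 did not pass. A gene passed at a limma adjusted p under 0.05, with the Benjamini-Hochberg adjustment over 17199 genes, and all 8 members had the mean value of 10 needed to be tested, E2f7 only through its groups without Rb1. In that comparison 71.1% of all genes passed, 36.8% of them all by a rise and 34.3% by a fall, so the count of members is near the background. The median log2 change of the family was 0.95, and that of all genes 0.03. DKO against WT raised 5 members (E2f1, E2f2, E2f3, E2f7 and E2f8) and lowered 0, where 67.9% of all genes passed, with 34.0% rising and 33.9% falling. DKO against Kdm5a KO gave the same 5 rises and 0 falls, where 67.2% of all genes passed, 33.7% of them all by a rise and 33.4% by a fall. These comparisons share libraries, so their counts are not independent.

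Kdm5a loss alone raised 1 of 8 members, E2f2, where 27.2% of all genes passed, 13.4% by a rise and 13.8% by a fall, and the family's median log2 change was 0.14. DKO against Rb1 KO raised E2f2 and E2f6 and lowered E2f3 and E2f5 (2 in each direction), where 47.3% of all genes passed, 23.1% by a rise and 24.2% by a fall. The interaction, the change between DKO and Rb1 KO minus that between Kdm5a KO and WT, passed for 3 members (E2f2 and E2f6 above 0, E2f5 below), where 38.3% of all genes passed, 18.8% above 0 and 19.5% below. In purified myotubes 3 members rose in DKO (E2f1, E2f2 and E2f7) and 0 fell, where 39.6% of the 16670 genes tested passed, 21.0% by a rise and 18.6% by a fall. E2f7 was tested there only through its DKO libraries. The change between DKO and WT differed between purified and mixed libraries for 3 members (E2f1 and E2f2 above 0, E2f6 below), where 24.8% of 17273 genes passed, 11.6% above 0 and 13.2% below.

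**Figure D2:**
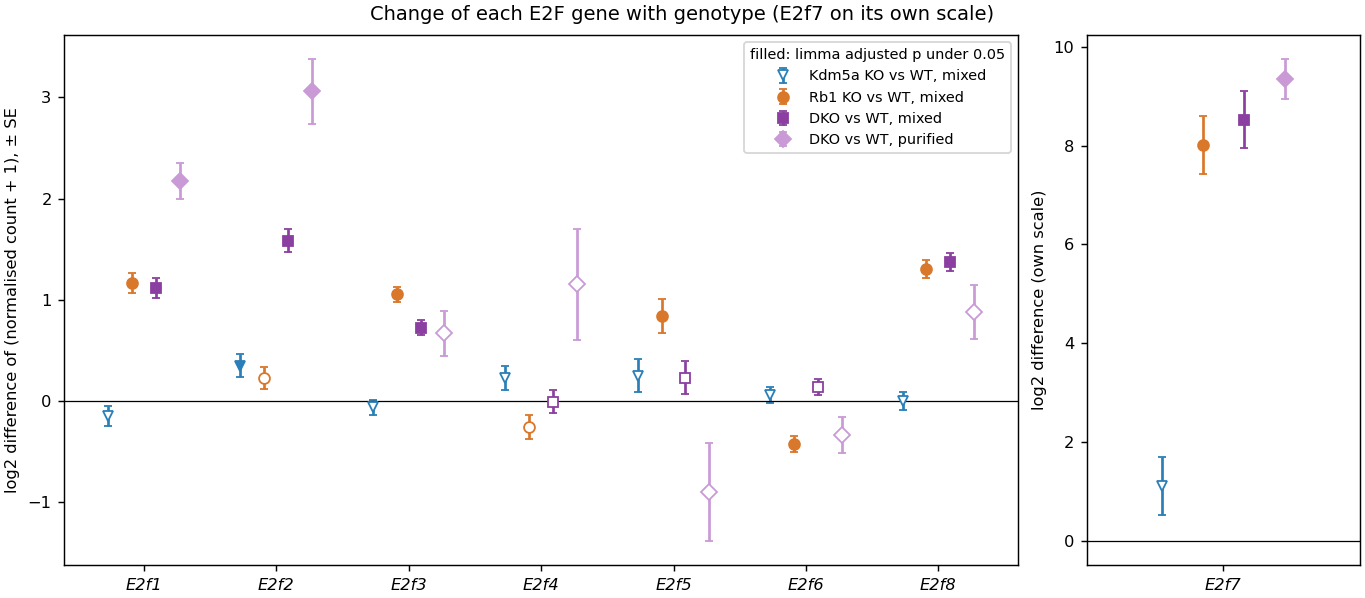
Log2 change of each member (vertical axes, log2 of the normalised count + 1, with E2f7 on its own scale, bars ± SE) in 4 comparisons with WT. Filled points passed the threshold. E2f7 stands apart at 8.01 for Rb1 KO and 8.53 for DKO against WT, while E2f2 is at 0.22 for Rb1 KO and 1.58 for DKO.

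E2f1 (ENSMUSG00000027490, chromosome 2), the activator best known for driving entry into S phase, was measured at 695 and 611 normalised counts in WT mixed, 537 and 645 in Kdm5a KO, 1485 and 1441 in Rb1 KO, 1426 and 1398 in DKO mixed, 711 and 713 in WT purified and 3277 and 3160 in DKO purified. The libraries without Rb1 were all higher than those with it, while WT mixed and Kdm5a KO overlapped. The 2.24-fold rise in Rb1 KO was 1.17 ± 0.10 on the log2 scale (limma adjusted p = 2.49e-07), and the rise in DKO over WT was 1.11 ± 0.10 (adjusted p = 4.67e-07). DKO and Rb1 KO differed by -0.05 ± 0.10 (adjusted p = 0.702), and Kdm5a KO and WT by -0.15 ± 0.10 (adjusted p = 0.297). In purified myotubes the rise was 4.52-fold, or 2.17 ± 0.18 (adjusted p = 0.00173). That exceeded the mixed-culture rise by 1.06 ± 0.17 (adjusted p = 0.00178). The rise was 2.15 or 2.20 and the excess 1.03 or 1.09 without DKO purified replicate 1 or 2.

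E2f3 (ENSMUSG00000016477, chromosome 13), an activator needed for proliferation of fibroblasts, held 916.5 and 866 normalised counts in WT mixed, 847 and 858 in Kdm5a KO, 1796 and 1907 in Rb1 KO, 1406 and 1540.0 in DKO mixed, 363 and 451 in WT purified and 611 and 676 in DKO purified. Rb1 KO was the highest group, DKO mixed came next, and neither overlapped another mixed group. The rise in Rb1 KO was 1.05 ± 0.08 (limma adjusted p = 5.55e-08) and that in DKO over WT 0.72 ± 0.08 (adjusted p = 2.45e-06). DKO lay below Rb1 KO by a log2 change of -0.33 ± 0.08 (adjusted p = 0.00314), a call lost without DKO mixed replicate 1 (-0.26, adjusted p = 0.0564, the largest over 15 alternatives). In purified myotubes the change was 0.67 ± 0.22 (adjusted p = 0.0663). It was 0.74 without DKO purified replicate 1 and 0.59 without replicate 2.

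E2f2 (ENSMUSG00000018983, chromosome 4), the third activator, held 855 and 643 normalised counts in WT mixed, 976 and 914 in Kdm5a KO, 847 and 885 in Rb1 KO, 2198 and 2253 in DKO mixed, 558 and 463 in WT purified and 3220 and 5603 in DKO purified. The DKO libraries stood above all others, while the WT and Rb1 KO mixed libraries overlapped. DKO exceeded WT by 1.58 ± 0.11 (limma adjusted p = 5.45e-08) and Rb1 KO by 1.36 ± 0.11 (adjusted p = 7.25e-07), whereas Rb1 KO differed from WT by 0.22 ± 0.11 (adjusted p = 0.0894). The interaction was 1.01 ± 0.16 (adjusted p = 0.000275) and passed in all 14 alternatives run, from 0.81 to 1.22.

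In purified myotubes E2f2 rose 8.34-fold, or 3.06 ± 0.32 (limma adjusted p = 0.00286), which exceeded the mixed-culture rise by 1.48 ± 0.33 (adjusted p = 0.00902). Without DKO purified replicate 1 the rise was 3.46 and the excess 1.87, and without replicate 2 they were 2.66 and 1.08. The rise of E2f2 in Kdm5a KO was small, at 0.35 ± 0.11 (adjusted p = 0.0346), and passed in 7 of 15 alternatives, with adjusted p from 0.000933 to 0.257. It was 0.14 without WT mixed replicate 2, 0.30 without Kdm5a KO replicate 1 and 0.40 without Kdm5a KO replicate 2, and none of these passed. It stayed at 0.35 and did not pass without Rb1 KO replicate 1, DKO mixed replicate 1 or DKO mixed replicate 2, which alter only the shared spread. The change of E2f2 in Rb1 KO became 0.43 and passed without WT mixed replicate 1.

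E2f4 (ENSMUSG00000014859, chromosome 8), the repressor that dominates in quiescent and differentiated cells, held 1204 and 954 normalised counts in WT mixed, 1294 and 1211 in Kdm5a KO, 986 and 812 in Rb1 KO, 1099.9 and 1031 in DKO mixed, 1726 and 1709 in WT purified and 2149.9 and 6775 in DKO purified. The mixed groups lay within a narrow band, and WT overlapped Rb1 KO and DKO. No mixed comparison passed: the log2 change was -0.26 ± 0.12 in Rb1 KO (limma adjusted p = 0.0601) and -0.01 ± 0.12 in DKO against WT (adjusted p = 0.95). The change between DKO and Rb1 KO was 0.25 ± 0.12 (adjusted p = 0.0936).

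Several E2f4 values sat close to the threshold and single libraries moved them across it. The change in Rb1 KO passed without WT mixed replicate 2 (-0.43) or Rb1 KO replicate 1 (-0.40), and that in Kdm5a KO passed without WT mixed replicate 1 (0.39 against 0.22). The change between DKO and Rb1 KO passed without Rb1 KO replicate 1 (0.39), and, at 0.25, without either WT mixed replicate. That between DKO and Kdm5a KO was -0.23 and passed without either WT mixed replicate. In purified myotubes the 1.15 ± 0.55 of E2f4 (limma adjusted p = 0.15) rested on 1 library, being 1.98 without DKO purified replicate 1 and 0.32 without replicate 2. The difference of that change from the mixed cultures was 1.16 ± 0.55 (adjusted p = 0.153). It was 1.99 without DKO purified replicate 1 and 0.33 without replicate 2.

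E2f5 (ENSMUSG00000027552, chromosome 3), the other repressor that works with pocket proteins, held 144 and 146 normalised counts in WT mixed, 184 and 161 in Kdm5a KO, 286 and 236 in Rb1 KO, 175 and 165 in DKO mixed, 68.8 and 69.6 in WT purified and 55.3 and 24.1 in DKO purified. Rb1 KO was above every other group, and the Kdm5a KO and DKO mixed libraries overlapped. The rise in Rb1 KO was 0.84 ± 0.17 (limma adjusted p = 0.000553), while DKO differed from WT by 0.23 ± 0.17 (adjusted p = 0.239). DKO was below Rb1 KO with a log2 change of -0.61 ± 0.17 (adjusted p = 0.00883), a call lost without Rb1 KO replicate 1 (-0.47) or DKO mixed replicate 2 (-0.57). The interaction was -0.86 ± 0.23 (adjusted p = 0.0116) and was lost without DKO mixed replicate 2 (-0.82). E2f5 had the fewest reads of the members in purified DKO, 57 over both libraries, and its purified change was -0.90 ± 0.48 (adjusted p = 0.191). Without DKO purified replicate 1 that change was -1.49 and its difference from the mixed cultures -1.71. Without replicate 2 they were -0.32 and -0.55. E2f5 shares 26 exonic bases with 1810022K09Rik.

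E2f6 (ENSMUSG00000057469, chromosome 12), the Polycomb-associated repressor, held 1561 and 1609.6 normalised counts in WT mixed, 1535 and 1779 in Kdm5a KO, 1213 and 1141 in Rb1 KO, 1787 and 1704 in DKO mixed, 1708 and 1620.0 in WT purified and 1309 and 1323 in DKO purified. Rb1 KO was the lowest mixed group, below all other mixed libraries. E2f6 fell in Rb1 KO by 0.43 ± 0.08 on the log2 scale (limma adjusted p = 0.000318) and was higher in DKO than in Rb1 KO by 0.57 ± 0.08 (adjusted p = 7.43e-05). The interaction was 0.51 ± 0.11 (adjusted p = 0.00327).

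Purified DKO and WT libraries of E2f6 did not overlap, but the change of -0.34 ± 0.18 did not pass (limma adjusted p = 0.188). It was -0.33 without DKO purified replicate 1 and -0.35 without replicate 2. Its difference from the mixed-culture change was -0.48 ± 0.15 (adjusted p = 0.0442) and passed in 5 of 19 alternatives, counting those without a DKO purified library. Leaving out any 1 of the 8 mixed or the 2 WT purified libraries ended this call, at values from -0.51 to -0.44. The difference was -0.47 and -0.48 without DKO purified replicate 1 and 2.

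E2f7 (ENSMUSG00000020185, chromosome 10), an atypical repressor, had few reads in every group with Rb1. Its normalised counts were 0 and 4.26 in WT mixed, 5.43 and 2.80 in Kdm5a KO, 640.0 and 545 in Rb1 KO, 806 and 884 in DKO mixed, 3.72 and 7.45 in WT purified and 3378 and 5009 in DKO purified. Every library without Rb1 was far above every library with it. E2f7 shares 86 exonic bases with 1700020G17Rik. Because the groups with Rb1 held 4, 10 and 8 reads over both libraries, the size is given as a ratio of size-factor-scaled reads with a 95% exact counting interval, which covers counting error only. Rb1 KO held 259 times the WT level (101 to 951), DKO mixed 377 times (147 to 1386) and DKO purified 733 times the purified WT level (372 to 1699). On the log2 scale these were 8.01 ± 0.58 (limma adjusted p = 5.91e-08), 8.53 ± 0.58 (adjusted p = 4.13e-08) and 9.35 ± 0.40 (adjusted p = 0.000849). E2f7 reached the mean value of 10 only through its groups without Rb1. The filter therefore set its direction, and these p-values add no support to it. Without WT mixed replicate 1 or 2 the E2f7 rise was 6.81 or 9.21 in Rb1 KO and 7.33 or 9.72 in DKO mixed, and a pseudocount of 5 gave 6.45 and 6.96. The purified rise was 9.63 or 9.06 without DKO purified replicate 1 or 2, and 8.93 or 9.77 without WT purified replicate 1 or 2.

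For E2f7, DKO mixed held 1.46 times the Rb1 KO level (1.36 to 1.56 by counting error). limma gave 0.52 ± 0.58 (adjusted p = 0.5), whereas edgeR gave 0.53 (adjusted p = 0.00692) and DESeq2 0.56 (adjusted p = 0.00154). It passed in 3 of 15 alternatives, the third being limma with only the groups compared (0.52, adjusted p = 0.000802). In the main fit limma's spread was shared by the 8 mixed libraries, and the WT pair held 0 and 4 reads. Kdm5a KO against WT, 10 against 4 reads, had a ratio of 1.75 (0.505 to 7.64) and a log2 change of 1.11 ± 0.58 (adjusted p = 0.182). Without WT mixed replicate 2, which left WT with 0 reads, that change passed at 2.31 and the interaction passed at -1.79. Without WT mixed replicate 1 both turned sign, to -0.09 and 0.61, and neither passed. The difference between purified and mixed cultures was 0.82 ± 0.90 (adjusted p = 0.54), 2.02, past the threshold, without WT mixed replicate 1, and -0.38, which did not pass, without WT mixed replicate 2. Without DKO purified replicate 1 or 2 it was 1.11 or 0.54.

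E2f8 (ENSMUSG00000046179, chromosome 7), the other atypical repressor, held 613 and 566 normalised counts in WT mixed, 553 and 625 in Kdm5a KO, 1491 and 1420.1 in Rb1 KO, 1477 and 1585 in DKO mixed, 1602 and 1713 in WT purified and 2457 and 3773 in DKO purified. Unlike E2f7 it had at least 1043 reads over the libraries of every group. Mixed libraries without Rb1 were all above those with it. The 2.47-fold rise in Rb1 KO was 1.30 ± 0.09 (limma adjusted p = 2.91e-08) and that in DKO over WT 1.38 ± 0.09 (adjusted p = 2.24e-08), while DKO and Rb1 KO differed by 0.07 ± 0.09 (adjusted p = 0.533).

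In purified myotubes the E2f8 change was 0.88 ± 0.26 and narrowly missed the threshold (limma adjusted p = 0.0502). It was 1.19 without DKO purified replicate 1 and 0.57 without replicate 2. Its difference from the mixed cultures was -0.50 ± 0.25 (adjusted p = 0.17), or -0.81 without DKO purified replicate 2 and -0.19 without replicate 1. E2f8 shares 610 exonic bases, 11.2% of its exonic length, with Gm2788 on the opposite strand. Gm2788 held 181 and 108 normalised counts in WT mixed and 497 and 441 in Rb1 KO. The labels do not say whether counting used strand, so the level of E2f8 is uncertain.

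Levels were compared between members as normalised counts per kilobase of exonic length. The annotation used for counting is not given, so the lengths and the order below are uncertain. Before division by length E2f6 stood above E2f4 in WT mixed (1561 and 1609.6 against 1204 and 954) and in Kdm5a KO. Likewise E2f3 stood above E2f1 in Rb1 KO (1796 and 1907 against 1485 and 1441). E2f4 then overlapped E2f8 in WT purified (1726 and 1709 against 1602 and 1713). E2f4 was the most abundant member in WT mixed (440 ± 72.0 per kb, SD, n = 2), Kdm5a KO (511 ± 23.9) and WT purified (701 ± 4.92), above the next member without overlap. In WT mixed it was followed by E2f6 (279.97 per kb), E2f1 (207), E2f3 (164), E2f2 (153), E2f8 (108), E2f5 (81.3) and E2f7 (0.237). Among these neighbours only E2f3 and E2f2 overlapped. In Rb1 KO E2f1 came first (464 ± 9.95 per kb) above E2f4 (367), which overlapped E2f3 (341). In DKO mixed E2f2 (456), E2f1 (448) and E2f4 (435) overlapped as neighbours at the top, and E2f5 (95.4) overlapped E2f7 (93.8) at the bottom. E2f4 led again in purified DKO, but its libraries lay at 877 and 2763 per kb and overlapped E2f1 (1020 ± 26.1).

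**Figure D3:**
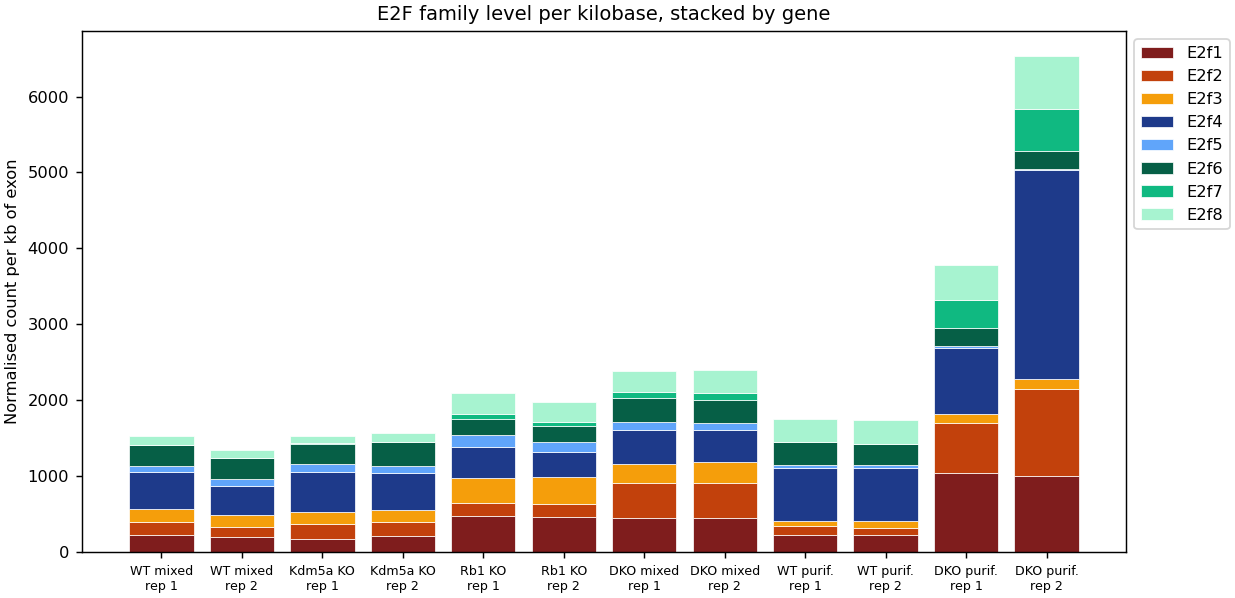
Normalised counts per kb of exon (vertical axis) of the 8 members, stacked by gene, in each of the 12 libraries (horizontal axis). Reds to yellow are the activators, blues E2f4 and E2f5, and greens E2f6 to E2f8. The activators' sum is between 485 and 564 in WT mixed and between 975 and 1188 in the mixed libraries without Rb1.

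The balance of activators and repressors is described from the same scale and was not tested. The activators' sum was 564 and 485 per kb in WT mixed, 526 and 550 in Kdm5a KO, 975 and 989 in Rb1 KO, 1161 and 1188 in DKO mixed, 406 and 404 in WT purified and 1811 and 2274 in DKO purified. Every library without Rb1 was above every library with it. The sum of E2f4 and E2f5 lay between 464 and 631 per kb over the 8 mixed libraries, with both Kdm5a KO libraries highest and the other genotypes overlapping. Activators made up 34.4 to 37.0% of the family in mixed libraries with Rb1 and 46.5 to 50.1% in those without.

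The ratio of activators to E2f4 plus E2f5 was 0.988 and 1.03 in WT mixed, 0.834 and 0.941 in Kdm5a KO, 1.73 and 2.13 in Rb1 KO and 2.12 and 2.32 in DKO mixed. With E2f6, E2f7 and E2f8 added to the repressors, the ratio was 0.588 and 0.564 in WT mixed but 0.869 and 1.003 in Rb1 KO and 0.949 and 0.988 in DKO mixed. The sum of E2f6, E2f7 and E2f8 was 388 and 389 per kb in WT mixed and 559 and 523 in Rb1 KO. WT purified myotubes had the lowest share of activators, 23.3 and 23.2%. The purified DKO libraries differed here, with 48.0% and 34.8%, and the ratio to E2f4 plus E2f5 was 2.00 in the first and 0.819 in the second.

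The partners of the family moved beside it in Rb1 KO against WT. Tfdp1, the main DP partner, held 556 and 496 normalised counts in WT mixed and 2364 and 2457 in Rb1 KO, a rise of 2.20 ± 0.08 (limma adjusted p = 1.17e-10), and Tfdp2 rose by 1.07 ± 0.11. Of the pocket proteins, Rbl1 (p107) held 219 and 181 normalised counts in WT mixed and 1334 and 1316 in Rb1 KO, a rise of 2.73 ± 0.11 (adjusted p = 2.29e-10). Rbl2 (p130) and Rb1 itself fell, by 0.51 ± 0.08 and 0.34 ± 0.05 on the log2 scale. In purified DKO, Tfdp1 rose by 2.89 ± 0.35 and Rbl1 by 2.62 ± 0.22, while Tfdp2 (-0.36 ± 0.20) and Rbl2 (0.04 ± 0.21) did not pass. Without DKO purified replicate 1 or 2 the rise of Tfdp1 was 3.32 or 2.47 and that of Rbl1 2.58 or 2.67. The change of Tfdp2 was then -0.39 or -0.32 and that of Rbl2 0.0721 or 0.00466. Rbl2 shares exonic bases with Aktip.

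All 30 listed S-phase targets of E2F rose in Rb1 KO, with a median log2 change of 3.74 against 0.03 for all genes, and all 30 rose in DKO mixed over WT (median 3.68). Of the 30, 3 had a mean under 10 in WT mixed (Cdc6, Cdt1 and Mcm10) and 1 in WT purified (Pcna). These reached the filter through groups where they are higher, so the filter favoured their rise. Over all genes 36.8% rose in the first comparison and 34.0% in the second. In purified DKO 29 rose and Cdc25a, a phosphatase that activates cyclin-dependent kinases, did not pass (0.58 ± 0.19), where 21.0% of all genes rose. Without DKO purified replicate 1 or 2 the list's median was 3.76 or 3.85, and Cdc25a was at 0.65 or 0.51. In Kdm5a KO 8 rose, 3 fell and 19 did not pass, with a median of 0.13, where 13.4% of all genes rose and 13.8% fell. Mcm6, a subunit of the replicative helicase, rose by 3.77 ± 0.09 in Rb1 KO, Ccne2 (cyclin E2) by 4.04 ± 0.10 and Ccna2 (cyclin A2) by 3.85 ± 0.08. Ccna2 and Ccne2 share exonic bases with Exosc9 and Ints8 on the opposite strand. The summed markers of cycling cells were higher in the same groups, as given above.

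Members of the MuvB and MYB group, which acts on genes of the late cell cycle, split. In Rb1 KO 4 of 7 rose, 0 fell and 3 did not pass (median 1.08). Over all genes 71.1% passed there and 36.8% rose. Mybl1 (A-Myb) rose by 7.01 ± 0.20, from 27.5 and 48.0 normalised counts in WT mixed to 5009.5 and 4621 in Rb1 KO. Mybl2 (B-Myb) rose by 4.44 ± 0.31 and Lin9, a MuvB subunit, by 2.27 ± 0.13. The same number rose in DKO mixed (median 1.74) and in purified DKO (median 1.83), where 34.0% and 21.0% of all genes rose. Mybl1 held 5.58 and 13.7 normalised counts in WT purified, a mean under 10. It reached the filter of the purified fit through its DKO libraries, so the filter favoured a rise. The purified median was 2.03 without DKO purified replicate 1 and 1.63 without replicate 2. Mybl1 also rose in Kdm5a KO, by 1.74 ± 0.20 (limma adjusted p = 4.73e-05).

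Of 12 genes of the E2F6 complex, 5 rose, 3 fell and 4 did not pass in Rb1 KO, with a median of 0.09. Over all genes 36.8% rose and 34.3% fell, so these counts are near the background. Rybp, a Polycomb subunit, rose by 1.78 ± 0.13, while Max, the partner of MGA in that complex, fell by 0.65 ± 0.12 on the log2 scale. Among 5 meiotic genes known as E2F6 targets, 3 had the mean value needed to be tested in mixed cultures, and only through the groups where they are high, so their direction was set by the filter and is given as a description. Stag3, a meiotic cohesin subunit, held 4.79 and 7.46 normalised counts in WT mixed, 7.23 and 20.3 in Kdm5a KO, 737 and 783 in Rb1 KO, 1005 and 982 in DKO mixed, 65.1 and 38.5 in WT purified and 1330.3 and 1709.9 in DKO purified. Its log2 change was 6.76 ± 0.37 in Rb1 KO and 7.15 ± 0.37 in DKO against WT, while E2f6 fell in Rb1 KO and did not pass in DKO (0.14 ± 0.08). Slc25a31, a mitochondrial ADP/ATP carrier of the germline, differed from WT by 4.80 ± 0.70 in Rb1 KO and by 1.55 ± 0.70 in DKO (limma adjusted p = 0.0646, not passed).

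The 3 listed genes of E2F protein turnover rose in Rb1 KO, where 36.8% of all genes rose. Ccnf, the F-box protein cyclin F, rose by 4.25 ± 0.10, Skp2, which marks E2F1 for degradation, by 1.54 ± 0.08, and Fzr1, an activator of the anaphase-promoting complex, by 0.60 ± 0.11. Skp2 did not pass in purified DKO (-0.31 ± 0.18), and was at -0.34 or -0.29 without DKO purified replicate 1 or 2. Its change differed from that in mixed cultures by -2.25 ± 0.15 (limma adjusted p = 1.62e-05), and by -2.28 or -2.23 without those replicates. Skp2 held 2138 and 1994 normalised counts in WT purified against 462 and 489 in WT mixed. In DKO it was not higher in purified cells, with 1691 and 1630 against 1781 and 1877 in mixed cultures.

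Of 7 apoptotic E2F targets, 6 rose in Rb1 KO (median 2.26), and all 7 rose in DKO mixed (median 1.70), where 36.8% and 34.0% of all genes rose. Apaf1, the scaffold of the apoptosome, rose by 2.26 ± 0.07 in Rb1 KO and by 1.70 ± 0.07 in DKO over WT. It did not pass in purified DKO (0.39 ± 0.19), and was at 0.50 or 0.27 there without DKO purified replicate 1 or 2. Cdkn2a, the locus of the INK4a and ARF inhibitors, rose by 1.14 ± 0.08 in Rb1 KO, 0.54 ± 0.08 in DKO mixed and 3.53 ± 0.19 in purified DKO (3.45 or 3.60 without DKO purified replicate 1 or 2). In purified DKO 5 of the 7 rose, 0 fell and 2 did not pass (median 1.40), where 21.0% of all genes rose and 18.6% fell. Without DKO purified replicate 1 or 2 the median of the 7 was 1.98 or 0.95.

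**Figure D4:**
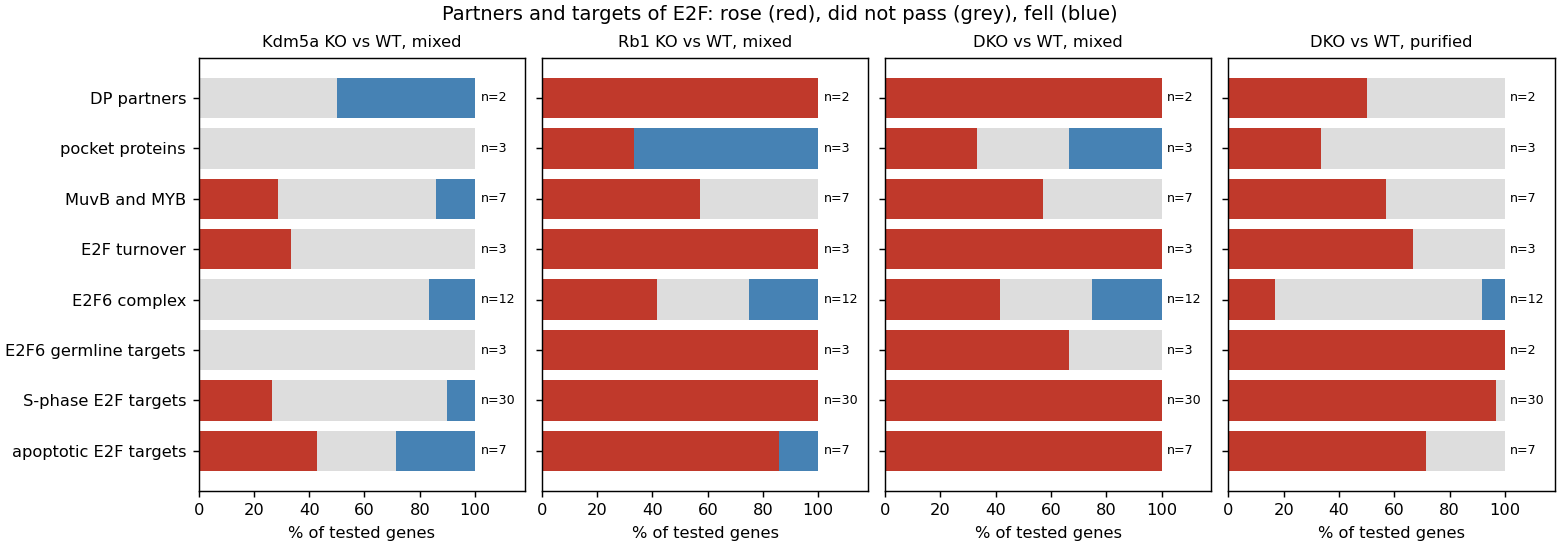
Percent of the tested genes of each list (horizontal axes, n at the right of each bar) that rose, did not pass or fell in 4 comparisons with WT. The S-phase targets rose in full, 30 of 30, in Rb1 KO and in DKO mixed against WT, and 8 of 30 rose in Kdm5a KO. Of the 30, 3 had a mean under 10 in WT mixed, as had 1 of the 7 apoptotic targets.

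The genes most like each member were those with the highest Pearson r of log2(normalised count + 1) over the 12 libraries, among 10882 genes with a mean of at least 100. The 12 points share library type, depth and genotype, so r is a description of likeness with no test. E2f1 was closest to Sdr39u1 (r = 0.99), Slc35g1 and Tmcc2, and E2f2 to Amigo1 (0.98), Arhgap22 and Acvr1b. E2f3 was closest to Ppp2r5a (0.99), Magi1 and Tmtc3. The 3 closest genes to E2f4 included Aspscr1 (0.98) and Cops7a, and those to E2f5 included Orc4 (0.99) and Vps4b. E2f6 had the weakest matches, Sh2d4b (0.94), Mrc1 and Gatb. E2f7 was closest to Pif1 (0.99), Tinf2 and Doc2b, and E2f8 to Ctc1 (0.99), Tubb5 and Sap130. Within the family the closest pair was E2f1 and E2f7 (0.94).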

How the data were processed

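Values are the signal the authors deposited, a read count for each gene and library divided by a size factor. The submitters' processing notes name TopHat 1.2.0, the mm9 build and DESeq. Which tool did which step, DESeq's version, the read counter and the annotation release are not given in the sources used here. Division by the smallest step of each column gave whole reads (100% of values within 0.01), used for depth, counting intervals, edgeR and DESeq2. Symbols and exonic lengths came from GENCODE M21, a later build than mm9, so gene coordinates are not given. Promoter stretches are RefSeq's, with GRCm38.p6 coordinates. limma 3.58.1 with an intensity trend (R 4.3.3) was fitted to log2(value + 1), two-sided, over genes with a mean of at least 10. The added 1 weighs most on genes with few reads, so the sizes of their changes depend on it. The 8 mixed libraries shared a fit, the 4 purified libraries had their own, and all 12 entered the comparison of purified with mixed changes. Alternatives were edgeR 4.0.16, DESeq2 1.42.0, TMM scaling, a pseudocount of 5, no filter, a replicate block, only the groups compared and each library left out. The scripts were tested on simulated data. Members and gene lists were chosen with earlier results of these data known. Named list genes are up to 4 a list with the smallest p in Rb1 KO against WT, and Cdc25a was named after its values were seen. Some genes that these rules select are not reported here.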

Additional observations from a re-analysis of the deposited data

Results flagged for a closer look

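Effects that differed between groups by a test of the difference itself were found for 4 members, with limma's adjusted p under 0.05. The change between DKO and Rb1 KO differed from that between Kdm5a KO and WT by 1.01 for E2f2, -0.86 for E2f5 and 0.51 for E2f6 on the log2 scale. The change between DKO and WT in purified myotubes differed from that in mixed cultures by 1.06 for E2f1, 1.48 for E2f2 and -0.48 for E2f6. The call for E2f5 was lost without DKO mixed replicate 2 (-0.82), and that for E2f6 between library types held in 5 of 19 alternatives. Library type, RNA selection and read length changed together between purified and mixed cells, and Kdm5a genotype changed together with sex, so their parts cannot be told apart. Groups of 2 libraries are too small to look for single outlying samples.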

How the results depend on the processing

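Over 64 member values 943 recomputations were made, of which 871 kept their side of the threshold, 26 lost it and 46 gained it. The sign turned in 28 of them, over 13 values, and in 0 of these did the value pass before or after. Of 30 calls, 25 held under every alternative run. The number of members called in Kdm5a KO against WT fell from 1 to 0 with no filter on low values and with only the groups compared, and ranged from 0 to 2 with 1 library left out. In purified DKO against WT it rose from 3 to 5 with DESeq2 and to 5 with the replicate block, and ranged from 3 to 8 with 1 library left out (8 without DKO purified replicate 1, 7 without replicate 2). For purified minus mixed it rose from 3 to 5 with DESeq2 and ranged from 2 to 5. With 1 library left out it ranged from 6 to 7 in Rb1 KO against WT, 5 to 5 in DKO against WT, 3 to 5 in DKO against Rb1 KO, 5 to 6 in DKO against Kdm5a KO and 2 to 4 for the interaction. A lone library was assumed to vary like the other groups. The purified DKO pair differed most, so counts without 1 of its libraries do not show that calls hold or appear. Counts over all genes moved from 4685 to 3057 in Kdm5a KO against WT without Kdm5a KO replicate 1. In purified DKO against WT they moved from 6598 to 1983 and 2170 without either WT purified replicate, and to 11574 and 10310 without either DKO purified replicate. For purified minus mixed they moved from 4292 to 2471 and 2479 without either DKO mixed replicate, 2800 without WT purified replicate 1, and 8989 and 6615 without either DKO purified replicate. The cause was not tested. Replicate numbers are not stated to pair samples: the correlation of replicate deviations between groups was -0.0522 to 0.102 within mixed and 0.028 within purified groups. Under the replicate block E2f4 passed in Rb1 KO against WT, DKO against Rb1 KO, DKO against Kdm5a KO and purified DKO against WT, E2f8 passed in the last, and E2f6 was lost for purified minus mixed. With TMM scaling or DESeq2, E2f4 passed in Rb1 KO against WT (-0.29 and -0.30) and in DKO against Rb1 KO (0.31 and 0.29). E2f8 in purified DKO against WT passed at a pseudocount of 5 and with edgeR, DESeq2 and TMM scaling. Depth limits E2f7, with 4 to 10 reads per group where Rb1 is present, and E2f5 in purified DKO.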
